A study of Mus musculus with 4 samples.

Results

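Lymphatic endothelial cells line the vessels that return fluid and leukocytes from the lung to the lymph nodes. In these whole-lung single-cell RNA-Seq data, a rule on lymphatic marker genes selected 135 of the 11846 barcodes that passed the cell filter; 106 of the 135 carried lymphatic genes that the rule did not use, and the other 29 carried blood endothelial genes. The 135 were selected on their own counts: a barcode needed 200 to 7500 detected genes, at most 10% mitochondrial transcripts, at least 1 unique molecular identifier (UMI, 1 captured transcript) of Prox1, at least 1 UMI of any of 4 partner markers (Mmrn1, Ccl21a, Lyve1 and Reln), and no UMI of the leukocyte gene Ptprc or the fibroblast gene Col1a2. Because the levels of these genes chose the cells, they are given below as a description only.

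Lungs of male wild-type C57BL/6 mice were compared at 2 ages (young, 2 to 3 months; aged, 22 months) and in 2 states, giving 4 groups: young nonventilated (YNV), young ventilated (YV), aged nonventilated (ANV) and aged ventilated (AV). The labels of all 4 groups give a food-restricted diet lowered stepwise to 70% of free intake; how far the young mice had followed it is not given in the sources used here. Ventilated mice received 3 hours of mechanical ventilation at 20 mL/kg, with a maximum of 0.6 mL, 150 breaths/min, no positive end-expiratory pressure and pure oxygen, together with anesthesia (ketamine and medetomidine), buprenorphine and vascular lines. Nonventilated mice were naive, so ventilation and the procedures that came with it cannot be told apart. Each group is 1 library made from the dissociated, cryopreserved and pooled left lobes of 3 mice, which allows no p-value. Differences below are between libraries. Their 95% intervals treat UMIs as independent and cover counting error only, not the spread between mice or between barcodes. They are too narrow where few barcodes hold most UMIs of a gene. Values for the 4 libraries are given in the order YNV, YV, ANV and AV.

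Lymphatic endothelium is specified by Prox1, the transcription factor that sets and keeps lymphatic identity, and is maintained by VEGF-C acting on the receptor VEGFR3, which Flt4 encodes. Initial lymphatic capillaries carry the hyaluronan receptor LYVE1 and secrete the chemokine CCL21, which draws CCR7-bearing dendritic cells and T cells into the vessel. Collecting vessels downstream have valves. In the lung the network follows airways and larger vessels rather than the alveolar walls, where blood capillaries lie.

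The rule found 37, 36, 37 and 25 barcodes, or 1.26% (0.887 to 1.73), 1.08% (0.759 to 1.49), 1.22% (0.863 to 1.68) and 0.98% (0.635 to 1.44) of the filtered barcodes of each library (exact Clopper-Pearson 95% intervals). The 4 intervals overlap, so no difference in share was detectable at this depth. The 4 libraries held 41222284, 44404172, 45218176 and 40655452 UMIs in all, of which the barcodes selected by the rule held 357033, 403032, 416919 and 379084. Their median depth was 8039, 8365, 7863 and 11141 UMIs, and the deepest single barcode held 10.4%, 13.2%, 8.56% and 11.9% of the UMIs of its library's selected barcodes. Pairs of libraries shared 23 barcode sequences, and 0 of these belonged to a selected barcode.

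Split by their number of partner markers, the 135 barcodes differed in markers that the rule did not use: one set held lymphatic genes and a smaller set held blood endothelial genes. The 106 barcodes with 2 or more partner markers (29, 27, 30 and 20 per library) all had a UMI of Flt4, and 103 of them had Maf, a transcription factor of lymphatic endothelium. Of the same 106, 92 had Sema3d (a secreted semaphorin), 90 Fxyd6 (a regulator of the sodium pump), 79 Pdpn (podoplanin, a classical lymphatic surface protein), 77 Tbx1 (a transcription factor needed for lymphatic growth) and 71 Thy1 (a surface glycoprotein). The other 29 barcodes (8, 9, 7 and 5) had Lyve1 as their only partner marker (Lyve1-only barcodes). Among them 11 had Flt4, 1 had Maf, and 0 had Pdpn, Thy1, Fxyd6, Sema3d or Tbx1. A count of 0 of 29 allows a share of up to 10.3% of barcodes with a UMI and sets no limit on the share that expresses the gene. Nrp2 separated the sets less, with a UMI in 103 of the 106 and in 14 of the 29 (48.3%), against 22.7% of other endothelial barcodes.

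The 29 barcodes carried blood endothelial genes. Gpihbp1, which holds lipoprotein lipase on capillary endothelium, had a UMI in 27 of the 29 and in 36 of the 106. Hpgd (a prostaglandin-degrading enzyme) had one in 26 against 8, and Kit (the stem cell factor receptor, a general capillary marker) in 23 against 7. Ptprb and Epas1 separated the sets less by detection: Ptprb was found in 29 of the 29 and 89 of the 106, and Epas1 in 29 and 65. Vwf, the von Willebrand factor gene and a marker of veins and larger vessels, was found in 15 of the 29 and in 0 of the 106, which allows up to 2.83% of barcodes with a UMI. Summed over 10 general capillary markers, the 29 held 8749, 8179, 8366 and 8791 UMIs per 1000000 of their own (CPM), close to the 8332, 7548, 10079.5 and 8908 CPM of other endothelial barcodes, whereas the 106 held 446, 538, 577 and 540.0 CPM. The pan-endothelial genes Pecam1, Cdh5 and Cldn5 had UMIs in 100, 98 and 100 of the 106, and in 28, 28 and 28 of the 29.

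**Figure D1:**
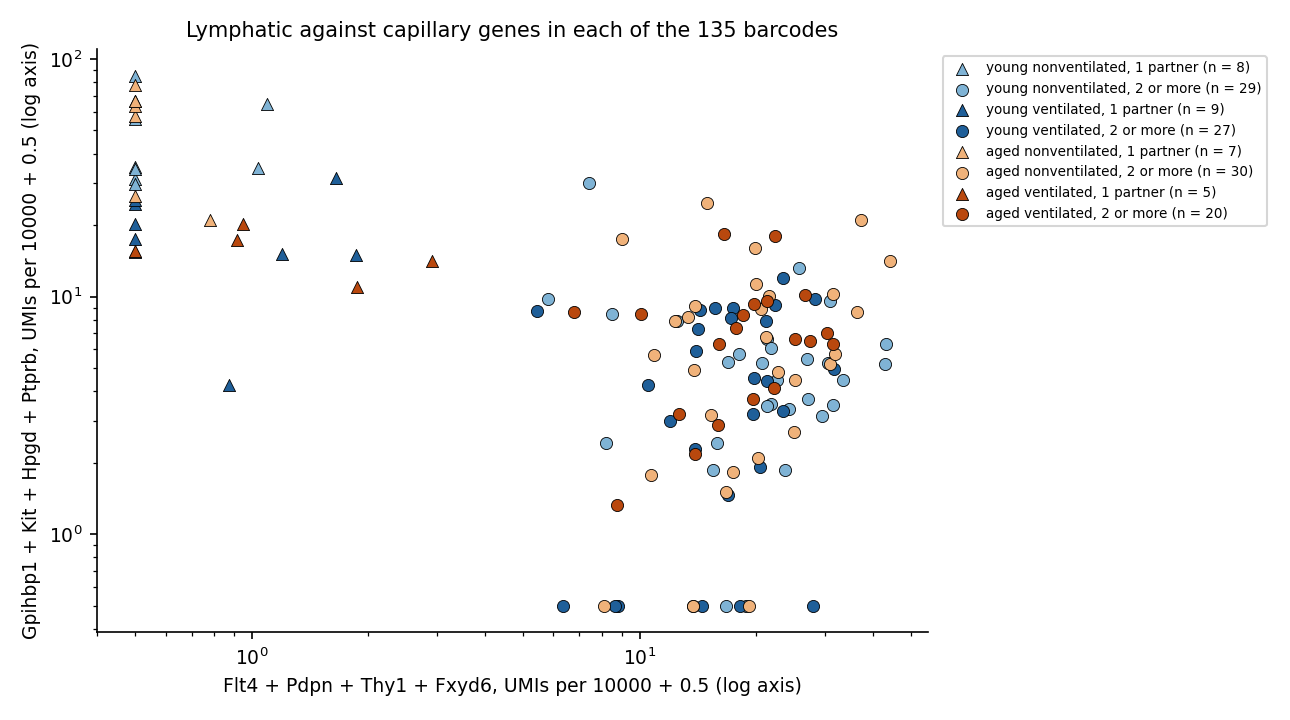
Each of the 135 barcodes by its UMIs per 10000 of 4 lymphatic genes (x axis: Flt4, Pdpn, Thy1 and Fxyd6) and of 4 blood endothelial genes (y axis: Gpihbp1, Kit, Hpgd and Ptprb), with 0.5 added and both axes on a log scale. Triangles are the 29 barcodes with Lyve1 as the only partner marker and circles the 106 with 2 or more partners; the 2 sets lie apart on the x axis, with no triangle as far right as any circle.

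Prox1 is a gene of the rule, so its level in the 29 is a description only: 23 of them had exactly 1 UMI, against 7 of the 106, and the median was 1 UMI in each library against 7, 4, 7 and 13. A low share of barcodes with a Prox1 UMI was also present in cells that should lack it, at 110 of 3829 leukocyte barcodes (2.87%, 2.37 to 3.45; median depth of 9448 to 11879.5 UMIs per library) and 31 of 2188 fibroblast barcodes (1.42%, 0.965 to 2.01). Of 3038 endothelial barcodes with Cdh5 and Cldn5 but neither Mmrn1 nor Ccl21a, 30 had a Prox1 UMI (0.987%, 0.667 to 1.41; median depth of 7556 to 9093 UMIs), and 27 of those 30 were among the 29. These shares rest on a gene of the rule and are given as a description only. The part of free RNA in the Prox1 UMIs of the 29, 6 of which had 2 to 6, was not tested. The 29 are given apart from the 106 for their other markers and are not called by a cell type. Lyve1 was present in 66.7%, 81.9%, 67.7% and 88.1% of 3008 other endothelial barcodes (those with Cdh5 and Cldn5 and without Prox1, Mmrn1, Ccl21a, Ptprc or Col1a2).

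The 29 held 30.9%, 46.5%, 34.3% and 27.7% of the UMIs in the 4 sums over all 135, so the results are given for the 135 as selected and for the 106, which are 0.986% (0.661 to 1.41), 0.812% (0.535 to 1.18), 0.992% (0.67 to 1.41) and 0.784% (0.479 to 1.21) of filtered barcodes. The 106 held 246848, 215593, 273965 and 274088 UMIs, with medians of 8164, 7231, 6780 and 9609.5 per barcode. The split at 2 partners was made after the counts were seen. At the edge of the rule, 155 further barcodes had Prox1 and no partner marker, of which 3 had both Cdh5 and Cldn5, and 59 had 2 or more partner markers and no Prox1, of which 6 had 3 or more. Ptprc removed 21 barcodes and Col1a2 removed 14 that otherwise met the rule.

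The genes of the rule, given as a description, ranged widely in level over the 106. Each UMI marks the 3' end of 1 transcript, so CPM values of different genes carry no length factor. Ccl21a was the most abundant at 13640, 8785, 14327 and 9712 CPM, counted for this gene symbol alone. A short read may not separate it from near-identical gene copies. Mmrn1, which encodes multimerin 1, stood at 3208, 2148, 2573 and 2521 CPM, Reln, the secreted glycoprotein reelin, at 2581, 2468, 2398 and 3357 CPM, and Prox1 at 1183, 1025, 1109.6 and 1047 CPM. Lyve1 stood at 988, 2148, 544 and 2375 CPM, higher in both ventilated libraries, and at 536, 1292, 487 and 1712 CPM in the other endothelial barcodes, where it was also higher in both.

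Set beside the other endothelial barcodes of the same library, the 106 stood apart in many genes. Of 4729 genes above the filter on low values (50 CPM or more when averaged across the sums compared, with 20 or more UMIs in 1 of them), 239 (5.05%) were higher and 278 (5.88%) lower by at least 2-fold in every library, each with an interval of the ratio that leaves out 1. Over all 135 the figures were 138 (2.98%) and 101 (2.18%) of 4632. The cells were chosen on part of their counts, so these are descriptions of the selected cells and not tests.

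The leading genes of the 106 were nearly silent in other endothelium. Sema3d stood at 656, 983, 839.5 and 1219 CPM against 0.118, 0.496, 0.26 and 0.617 CPM in other endothelium, a log2 ratio of 10.63 to 11.45 over the 4 libraries (1 UMI added to each sum). Fxyd6 stood at 672, 227, 518 and 317 CPM (log2 ratio 9.87 to 12.48), Thy1 at 328, 144, 277 and 193 CPM (9.32 to 11.46) and Tbx1 at 207, 162, 179 and 168 CPM (9.40 to 10.80). Maf, at 1365, 1693, 1354 and 2138 CPM, had a log2 ratio of 9.26 to 10.59. Also among the 20 leading genes, Cacna2d3, an auxiliary calcium channel subunit, had a log2 ratio of 10.03 to 11.18, Kcnn3, a calcium-activated potassium channel, 8.58 to 10.63, and Slc9a9, a sodium-proton exchanger, 6.30 to 7.73. Others were Apba2, Srgap3, Npas3 and Gpm6a, genes best known from neurons, with lowest ratios between 6.97 and 8.75, the collagen gene Col23a1 (6.56 to 8.33) and Mrc1, a scavenger receptor shared with macrophages (6.48 to 8.03).

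The 10 genes lowest in the 106 included markers of blood vessels. Adgrl3, a latrophilin adhesion receptor, had a log2 ratio of -8.18 to -6.13, Hpgd -7.97 to -5.28, Vwf -7.12 to -5.38, the phosphodiesterase gene Pde3a -7.35 to -5.49 and the transcription factor gene Tbx3 -6.29 to -5.71. Smad6, an inhibitor of bone morphogenetic protein signaling, stood at 0, 0, 3.65 and 7.3 CPM against 409, 157, 544 and 374 CPM. Chosen over all 135 instead, the lower genes had smaller ratios, led by Hopx at -3.28 to -1.96 and Sema3c, another secreted semaphorin, at -2.24 to -1.86; that sum includes the 29 Lyve1-only barcodes.

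**Figure D2:**
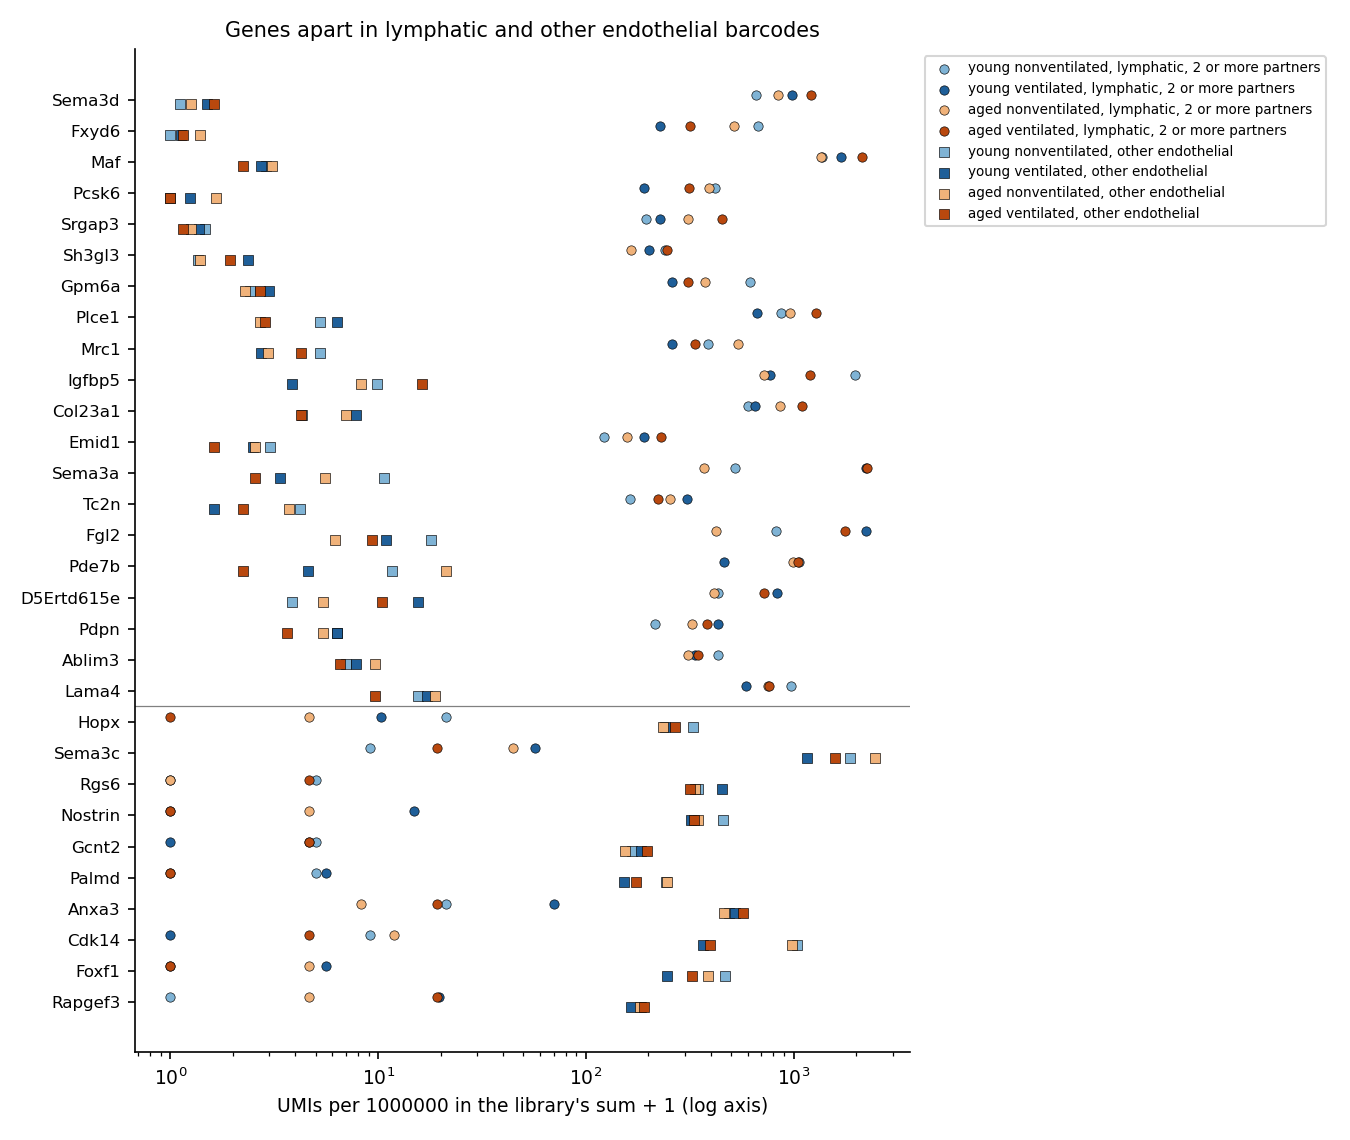
Level of 30 genes named over all 135 barcodes, as UMIs per 1000000 of a library's sum plus 1 (log axis), in the 106 barcodes with 2 or more partners (circles) and in other endothelial barcodes (squares), colored by library. The 20 genes above the line are higher in every lymphatic sum and the 10 below it are lower in every one, with no overlap of circles and squares within a gene.

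Among the 106, Lyve1 and some rarer genes were found in part of the barcodes. Lyve1 had a UMI in 23 of 29, 24 of 27, 19 of 30 and 19 of 20 barcodes. Among genes of valves and collecting vessels, Itga9, an integrin subunit of valve leaflets, was found in 24 of 29, 21 of 27, 26 of 30 and 18 of 20 barcodes at 575, 663, 697 and 832 CPM, while Foxc2, the transcription factor of valve cells, had a UMI in 1, 2, 1 and 4 barcodes and the junction gene Cldn11 in 3, 0, 3 and 0. Igfbp5, a secreted binding protein of insulin-like growth factors, was concentrated in some cells: 10 of 29, 13 of 27, 9 of 30 and 11 of 20 barcodes held its 488, 166, 197 and 329 UMIs.

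The first comparison asks how the selected barcodes, and the 106 with lymphatic genes among them, differed between ventilated and nonventilated lungs at each age. Serpina3n (a serine protease inhibitor), Mt1 and Mt2 (metal-binding proteins), Ackr3 (a chemokine-scavenging receptor) and Sema3a (a guidance factor) were higher in both ventilated libraries, and Fgf13, Tgfb2, Foxp2 and F8 were lower. Over the 135 barcodes, 385 of 3896 genes were past the fold on the higher side in young (9.88%) and 412 (10.6%) on the lower side, with 223 (5.72%) and 200 (5.13%) of 3902 in aged. Past the fold here means at least 2-fold with 1 UMI added to each sum, and an exact interval of the ratio that leaves out 1. Over the 106, the figures were 268 (9.19%) and 309 (10.6%) of 2916 in young and 199 (6.05%) and 200 (6.08%) of 3289 in aged. Of the genes higher over the 135, 151 in young (39.2%) and 118 in aged (52.9%) were also higher over the 106, where they made up 56.3% and 59.3% of the higher genes. Of the lower genes, 222 in young (53.9%) and 95 in aged (47.5%) were shared, 71.8% and 47.5% of those lower over the 106.

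The young and the aged comparison share no library. Over the 135, 84 genes were higher at both ages, 21.8% of the young list and 37.7% of the aged list, and 64 were lower at both, 15.5% and 32% of the lists. Over the 106, 53 were higher at both (19.8% and 26.6%) and 37 lower (12% and 18.5%). With genes of the rule and unnamed genes left out, 31 genes were higher and 15 lower at both ages, over the 135 and the 106 alike. Most of the genes described next come from these. That criterion was set after the counts were seen.

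Serpina3n, Lcn2, Lrg1 and Lbp, each known from the acute-phase response, were among the 31 higher genes, while Cp, which encodes the acute-phase protein ceruloplasmin, was lower in young with 277, 115, 181 and 320 UMIs over the 106. Serpina3n, which encodes a secreted inhibitor of serine proteases (chr12:104406729-104414329, plus strand, in the GRCm38 annotation), had 8, 143, 16 and 197 UMIs over the 106 and stood at 32.4 CPM (95% interval 14 to 63.9), 663 CPM (95% interval 559 to 781), 58.4 CPM (95% interval 33.4 to 94.8) and 719 CPM (95% interval 622 to 826). It was detected in 5 of 29, 21 of 27, 12 of 30 and 14 of 20 barcodes, and the intervals of ventilated and nonventilated libraries did not overlap. Its ratio of ventilated to nonventilated CPM was 20.5 (10.1 to 48.3) in young and 12.3 (7.39 to 22) in aged. Over the 135, the ratios were 16.1 (7.94 to 37.9) and 13.6 (8.18 to 24.3).

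Lcn2, the siderophore-binding lipocalin 2, stood at 251, 1373, 226 and 1704 CPM, with ratios of 5.47 (4.15 to 7.31) and 7.53 (5.77 to 9.98); in the other endothelial barcodes it was 0.709, 50.7, 4.55 and 59.9 CPM, so its level was higher in the lymphatic sums of all 4 libraries. Lrg1, a secreted leucine-rich glycoprotein of the acute phase, stood at 186, 1582, 234 and 989 CPM and had ratios of 8.49 (6.23 to 11.8) and 4.23 (3.21 to 5.65). Lbp, the lipopolysaccharide-binding protein, was nearer the 2-fold limit, with ratios of 2.45 (1.78 to 3.4) and 2.05 (1.41 to 3.02). Serpina3n, Lcn2, Lrg1 and Lbp were each higher in the ventilated than in the nonventilated library of each age. In other endothelial barcodes the log2 ratios in young and aged were 3.71 and 4.61 for Serpina3n and 5.94 and 3.68 for Lcn2. For Lrg1 they were 1.53 and 2.70, and for Lbp -0.18 and 0.76.

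The metallothionein genes Mt1 and Mt2, neighbors on chromosome 8 that encode small zinc- and copper-binding proteins, were also higher. Their transcription answers to zinc through metal response elements bound by the factor MTF1, and both also respond to glucocorticoids. Because both genes were higher together, their RefSeq promoters (GRCm38.p6, plus strand, 250 bases before to 50 after the start) are shown, with the metal response element cores TGCACNC or TGCGCNC, searched on both strands, in capitals. Mt1 is read from chr8:94178839-94179138 and has 3 cores, and Mt2 from chr8:94172368-94172667 and has 4.
Mt1: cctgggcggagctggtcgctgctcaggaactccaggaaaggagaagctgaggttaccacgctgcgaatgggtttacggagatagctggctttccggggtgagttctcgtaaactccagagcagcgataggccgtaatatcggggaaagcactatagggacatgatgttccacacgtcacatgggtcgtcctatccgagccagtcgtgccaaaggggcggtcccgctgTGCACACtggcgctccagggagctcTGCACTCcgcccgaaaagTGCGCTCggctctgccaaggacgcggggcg
Mt2: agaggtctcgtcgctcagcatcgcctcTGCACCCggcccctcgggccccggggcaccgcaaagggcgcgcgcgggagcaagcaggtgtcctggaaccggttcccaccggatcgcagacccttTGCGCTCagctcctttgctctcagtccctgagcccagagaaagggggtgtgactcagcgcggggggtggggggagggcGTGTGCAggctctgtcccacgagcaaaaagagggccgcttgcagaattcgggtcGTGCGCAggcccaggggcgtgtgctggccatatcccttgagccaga
Of 32851 promoters of the same length, 25.7% hold at least 1 such core, 1.97% at least 3 and 0.517% at least 4. A match describes letters in this window and is not evidence of binding in these cells.

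Mt2 had 13, 176, 23 and 253 UMIs over the 106, or 52.7 CPM (95% interval 28 to 90.1), 816 CPM (95% interval 700.2 to 946), 84 CPM (95% interval 53.2 to 126) and 923 CPM (95% interval 813 to 1044), in 4 of 29, 24 of 27, 8 of 30 and 19 of 20 barcodes. It was low in both nonventilated libraries and present in nearly every barcode of both ventilated ones, with ratios of 15.5 (8.83 to 29.7) and 11 (7.17 to 17.7). Mt1 stood at 190.4, 2542, 423 and 1416 CPM, in 7 of 29, 25 of 27, 18 of 30 and 18 of 20 barcodes, with ratios of 13.3 (9.9 to 18.4) and 3.34 (2.71 to 4.15); a single barcode held 34%, 35%, 38.8% and 33.5% of its UMIs. Other endothelial barcodes showed the same direction with larger ratios, Mt2 at 2.95, 405, 8.19 and 742 CPM and Mt1 at 15.7, 967, 33.9 and 1840.3 CPM. Slc39a14, which encodes a zinc importer of the plasma membrane, stood at 36.5, 376, 106 and 368 CPM, with ratios of 10.3 (5.17 to 23.3) and 3.48 (2.28 to 5.46).

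**Figure D3:**
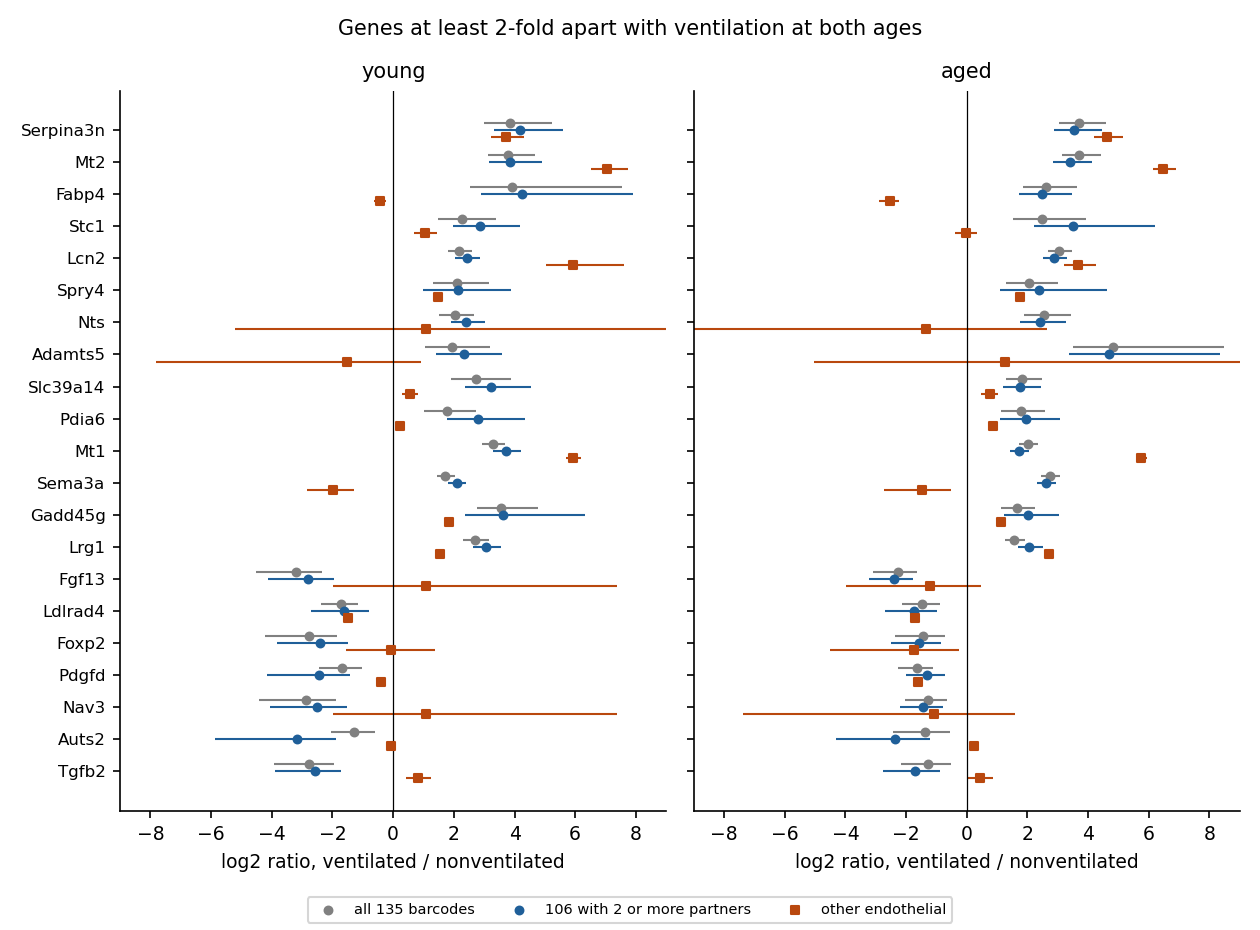
Log2 ratio of ventilated to nonventilated libraries (x axis, 1 UMI added) in young (left) and aged (right) for 21 of the genes past the fold at both ages, over all 135 barcodes (grey), the 106 with 2 or more partners (blue) and other endothelial barcodes (orange squares), with exact 95% intervals cut at the edges of the axis. Serpina3n, Mt2, Lcn2 and Mt1 are to the right of 0 in all 3 sets, while Sema3a and Fabp4 are right of 0 in the sets of selected barcodes and left of 0 in other endothelium.

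Sema3a, a secreted semaphorin that repels axons and acts through neuropilin 1 (chr5:13125414-13602565, plus strand), had 128, 480, 101 and 619 UMIs over the 106. It stood at 519 CPM (95% interval 433 to 617), 2226 CPM (95% interval 2032 to 2435), 369 CPM (95% interval 300.3 to 448) and 2258 CPM (95% interval 2084 to 2444), in 23 of 29, 25 of 27, 21 of 30 and 19 of 20 barcodes, with no overlap of intervals between the 2 states. The ratios were 4.29 (3.53 to 5.26) in young and 6.13 (4.96 to 7.64) in aged. In other endothelial barcodes the same gene was below the filter on low values, with lower values in both ventilated libraries, at 9.68, 2.36, 4.55 and 1.54 CPM (log2 ratio -1.98 and -1.46).

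Other genes of leukocyte traffic followed. Fgl2, a membrane and secreted fibrinogen-like protein that restrains T cells, stood at 822, 2222, 423 and 1769.5 CPM with ratios of 2.7 (2.29 to 3.2) and 4.18 (3.41 to 5.16), although 1 barcode held 44.8% of its UMIs in ANV and 51.1% in AV. The atypical receptor genes Ackr3, which clears CXCL12 and adrenomedullin, and Ackr2, which clears inflammatory CC chemokines, stood at 28.4, 227, 25.6 and 117 CPM and 129.6, 297, 84 and 237 CPM. Their ratios were 8.01 (3.61 to 21) and 4.57 (1.98 to 12.3) for Ackr3, and 2.29 (1.48 to 3.62) and 2.82 (1.73 to 4.76) for Ackr2, which over the 135 was past the fold in aged only. Of the 28 leukocyte traffic genes, 16 were above the filter over the 135 in young, with 7 higher, 2 lower and a median log2 ratio of 0.84 (all genes -0.04), and 15 in aged, with 5 higher, 1 lower and a median of 0.03 (all genes -0.0048). Of all genes above the filter, 9.88% were higher and 10.6% lower in young, and 5.72% and 5.13% in aged. Over the 106 the counts were 4 higher and 1 lower of 13 at each age, with medians of 0.38 and 0.34. The shares of all genes over the 106 were 9.19% higher and 10.6% lower in young, and 6.05% and 6.08% in aged. These medians over the 135 depended on the barcodes used: the young one was 0.16 without possible doublets, and the aged one was 1.14 with each barcode thinned to 3000 UMIs. Over the 135 Cxcl12, the chemokine that ACKR3 clears and a capillary marker, was lower in both, and over the 106 it had 22, 2, 17 and 7 UMIs.

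The protease genes Adamts5, Adamts1 and Adamts4 and the hormone genes Stc1 and Nts were higher over the 106 at both ages, whereas the protease genes Prss23 and Tll1 were lower in young. Adamts5, a protease that cleaves aggrecan and versican, had 10, 47, 2 and 77 UMIs over the 106 and stood at 40.5, 218, 7.3 and 281 CPM, with ratios of 5.38 (2.68 to 11.9) and 38.5 (10.3 to 323); the aged ratio rests on 2 UMIs in ANV. Its relatives Adamts1 and Adamts4 stood at 72.9, 756, 263 and 821 CPM and 24.3, 135, 94.9 and 274 CPM; Adamts1 had ratios of 10.4 (6.36 to 17.9) and 3.12 (2.39 to 4.13), and Adamts4 of 5.53 (2.26 to 16.3) and 2.88 (1.82 to 4.69). Stc1, the hormone stanniocalcin 1, had 9, 63, 3 and 44 UMIs, with ratios of 8.01 (3.96 to 18.3) and 14.7 (4.7 to 73.8). Nts, which encodes neurotensin, came from few cells, with 33, 157, 18 and 100 UMIs in 3 of 29, 12 of 27, 2 of 30 and 4 of 20 barcodes. Fabp4, the fatty acid carrier of capillary endothelium, had 2, 49, 14 and 82 UMIs in 2 of 29, 10 of 27, 6 of 30 and 9 of 20 barcodes and ratios of 28.1 (7.36 to 238) and 5.85 (3.3 to 11.2), while in other endothelium it stood at 58.2, 43.1, 85.9 and 14.7 CPM, lower with ventilation in both.

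Also among the 31 were Pdia6, Txn1, Tnfrsf1a, Gadd45g and Spry4. Pdia6, a disulfide isomerase of the endoplasmic reticulum, stood at 28.4, 218, 43.8 and 179 CPM and Txn1, thioredoxin, at 68.9, 232, 51.1 and 171 CPM, with ratios of 7.69 (3.45 to 20.2) and 4.08 (2.14 to 8.43) for Pdia6 and 3.37 (1.91 to 6.23) and 3.36 (1.82 to 6.6) for Txn1. Tnfrsf1a, the main receptor for tumor necrosis factor, stood at 40.5, 116, 43.8 and 201 CPM with ratios of 2.86 (1.33 to 6.68) and 4.58 (2.42 to 9.4). Gadd45g, a stress-response gene, and Spry4, an inhibitor of receptor tyrosine kinase signaling, were past the fold at both ages with log2 ratios between 2.02 and 3.62 and between 2.14 and 2.38. In other endothelium the log2 ratios in young and aged were 1.83 and 1.12 for Gadd45g and 1.47 and 1.76 for Spry4.

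Genes lower with ventilation at both ages were led by Fgf13, an intracellular member of the fibroblast growth factor family that binds sodium channels and microtubules (chrX:59062145-59568071, minus strand). It had 79, 9, 116 and 21 UMIs over the 106 and stood at 320.0 CPM (95% interval 253 to 399), 41.7 CPM (95% interval 19.1 to 79.2), 423 CPM (95% interval 349.9 to 508) and 76.6 CPM (95% interval 47.4 to 117), in 14 of 29, 5 of 27, 23 of 30 and 8 of 20 barcodes. Both ventilated libraries were below both nonventilated ones, with ratios of 0.13 (0.0575 to 0.26) and 0.181 (0.108 to 0.29). Tgfb2, the ligand transforming growth factor beta 2, stood at 275, 41.7, 175 and 51.1 CPM in 12 of 29, 3 of 27, 15 of 30 and 6 of 20 barcodes, with ratios of 0.152 (0.0665 to 0.305) and 0.292 (0.148 to 0.538); in other endothelium its log2 ratios were 0.83 and 0.43. Foxp2, a forkhead transcription factor, stood at 219, 37.1, 204 and 65.7 CPM, with ratios of 0.17 (0.0697 to 0.359) and 0.321 (0.178 to 0.555). In other endothelium the log2 ratios of Foxp2 were -0.07 in young and -1.75 in aged. F8, coagulation factor VIII, which lymphatic and liver endothelium make, stood at 235, 97.4, 347 and 80.3 CPM with ratios of 0.415 (0.239 to 0.693) and 0.231 (0.139 to 0.371). Pdgfd, a platelet-derived growth factor, had log2 ratios of -2.46 and -1.31.

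**Figure D4:**
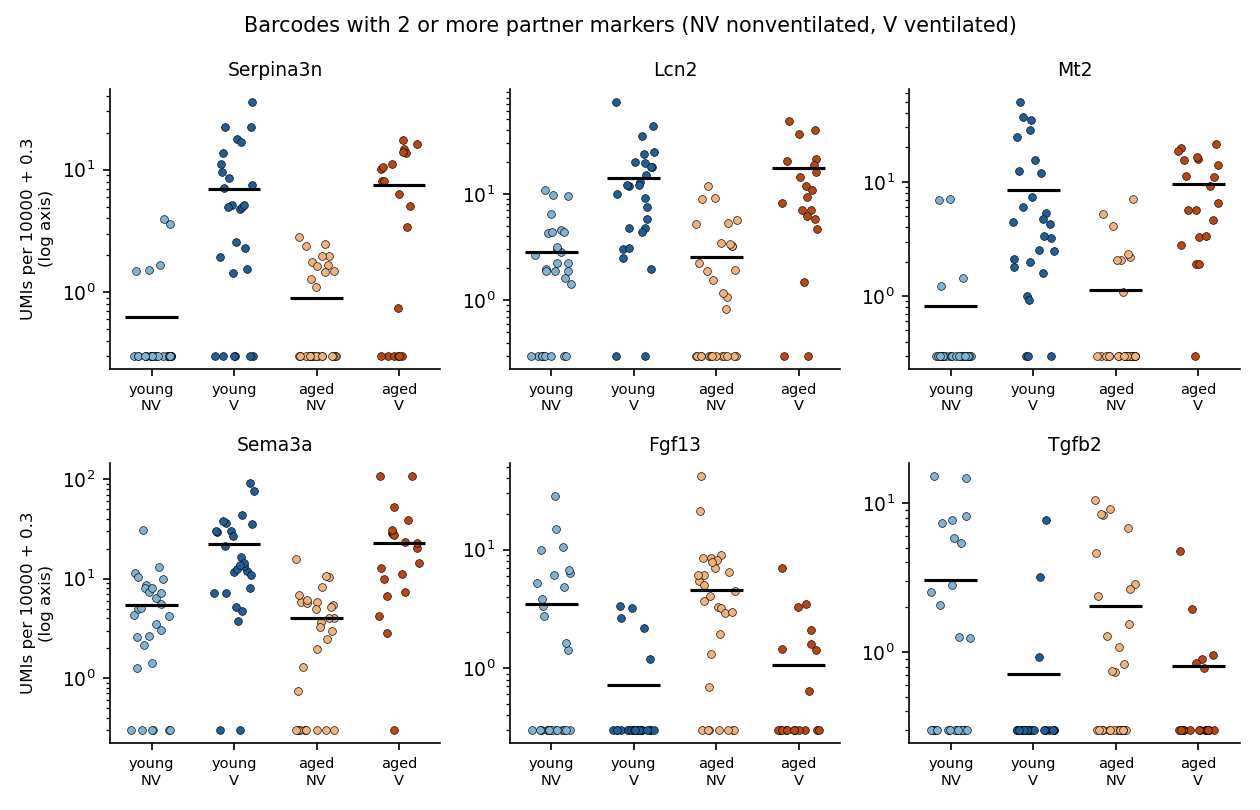
UMIs per 10000 plus 0.3 (log axis) of 6 genes in each of the 106 barcodes by library (NV nonventilated, V ventilated); the bar is the level of the library's sum. Serpina3n, Lcn2, Mt2 and Sema3a lie higher in both ventilated libraries and Fgf13 and Tgfb2 lower, with barcodes at 0 in every library for each of the 6.

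Several genes were past the fold in young only; the difference between ages was not tested. Il7, the lymphocyte survival cytokine that lymphatic endothelium secretes, had 47, 3, 20 and 9 UMIs over the 106 and stood at 190.4 CPM (95% interval 139.9 to 253), 13.9 CPM (95% interval 2.87 to 40.7), 73 CPM (95% interval 44.6 to 113) and 32.8 CPM (95% interval 15 to 62.3), in 19 of 29, 3 of 27, 11 of 30 and 4 of 20 barcodes. YNV stood above the other 3 libraries, whose intervals overlap in part, and the ratio was 0.0731 (0.0146 to 0.227) in young and 0.45 (0.18 to 1.03) in aged. Prss23, a serine protease, stood at 591, 69.6, 252 and 219 CPM with ratios of 0.118 (0.0642 to 0.2) and 0.869 (0.605 to 1.25). Thy1 and Fxyd6 had ratios of 0.438 (0.28 to 0.67) and 0.697 (0.481 to 1) and of 0.338 (0.241 to 0.467) and 0.612 (0.463 to 0.805). Sox18, a transcription factor upstream of Prox1, stood at 81, 32.5, 47.5 and 69.3 CPM with ratios of 0.401 (0.143 to 0.987) and 1.46 (0.684 to 3.22), and Klf4, a flow-responsive factor, at 1353, 594, 1055 and 967 CPM with ratios of 0.439 (0.355 to 0.54) and 0.917 (0.773 to 1.09). Hspa5, the main chaperone of the endoplasmic reticulum, was higher in young at 324, 1076, 715 and 916 CPM with ratios of 3.32 (2.56 to 4.34) and 1.28 (1.06 to 1.55).

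The naming rule over the 135 also gave Fign, Pkhd1l1, Ecm2, Ank and Prkag2 as lower in young. Fign, a microtubule-severing enzyme, had 42, 3, 19 and 26 UMIs over the 106, Pkhd1l1, a large cell surface protein, 50, 6, 25 and 9, and Ank, a pyrophosphate transporter, 65, 9, 35 and 18. Higher in young were Ifit3, Rsad2, Isg15 and Ly6a, taken up with the interferon genes, and Noct, a circadian clock-regulated gene, with 8, 156, 49 and 136 UMIs over the 135 and 3, 19, 8 and 19 over the 106. Named over the 106 alone, Cmah, an enzyme of sialic acid synthesis, had 11, 127, 16 and 147 UMIs, higher in both ventilated libraries.

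In aged, the naming rule added Pglyrp1, a bactericidal peptidoglycan-binding protein, with 19, 15, 9 and 89 UMIs over the 106, and Plpp1, a phosphatase of lysophosphatidic acid at the cell surface, with 92, 227, 56 and 463 with ratios of 2.83 (2.21 to 3.64) and 8.26 (6.25 to 11.1). Colgalt2, which adds sugar to collagen, had 9, 2, 5 and 29 UMIs, and Zfp697 had 5, 81, 6 and 56 UMIs over the 135 of which the 106 held 1, 12, 2 and 4. Lower in aged were Taf4b, a subunit of the general transcription machinery, with 12, 12, 74 and 9 UMIs over the 106, and Lifr, the receptor of leukemia inhibitory factor, with 17, 5, 15 and 5. Without possible doublets Lifr was not past the fold (log2 ratio -0.71). Syne2 kept a log2 ratio of -1.12 there but did not meet the interval or the filter on low values. Syne2, which ties the nucleus to the cytoskeleton, had 65, 27, 53 and 9 UMIs over the 135 and 21, 10, 25 and 6 over the 106. Clec14a, a lectin of blood endothelium, Ncald, a calcium sensor, and Sntb1, a syntrophin of the membrane skeleton, were named lower over the 135 with 58, 18, 67 and 6, 50, 20, 103 and 10 and 41, 16, 38 and 5 UMIs, but the 106 held 5, 1, 8 and 1, 1, 0, 4 and 1 and 5, 0, 9 and 3 of these.

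Interferon response genes were higher in the young ventilated sum of all 135, and that difference was carried mostly by the 29 Lyve1-only barcodes. Of 32 genes on the list, 30 were above the filter over the 135 in young, and 22 of the 30 were higher (9.88% of all genes) and 0 lower, with a median log2 ratio of 1.68 (all genes -0.04) and a summed level of 3759 CPM in YNV and 11562 CPM in YV. Over the 106, 12 genes were above the filter, and 4 were higher and 1 lower (all genes 9.19% and 10.6%). Their median was 0.14 (all genes -0.0017), with sums of 3257 and 4643 CPM. In other endothelium the median of 31 list members was 1.48 (all genes -0.07). Without the 73 barcodes of the 135 that may be doublets by their capillary or alveolar genes, the median in young was -0.60. These 73 include 27 of the 29, each flagged by the capillary gene Gpihbp1. Of the 106 they include 7 of 29 in YNV and 13 of 27 in YV. A gene can pass the filter through its high library alone, so the counts over tested genes describe the lists and support nothing.

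Rsad2, an antiviral enzyme, had 15, 293, 34 and 9 UMIs over the 135 and 13, 27, 24 and 2 over the 106, where they lay in 2 of 29, 3 of 27, 2 of 30 and 2 of 20 barcodes. Isg15, a ubiquitin-like modifier, had 19, 280, 63 and 54 UMIs over the 135 and 14, 42, 32 and 16 over the 106, and Ifit3, an interferon-induced antiviral protein, 3, 177, 24 and 7 and 1, 11, 8 and 0. Gbp2, a guanylate-binding protein of the interferon-gamma response, stood at 42, 198, 33 and 14 and 34, 30, 20 and 4, and Ly6a, an interferon-responsive surface protein of endothelium, at 49, 693, 225 and 402 and 2, 40, 11 and 4. The 4 list members higher in young over the 106 were Isg15, Rsad2, Ifi35 and Rnf213, an interferon-inducible ubiquitin ligase with ratios of 6.4 (4.66 to 8.99) over the 135 and 4.52 (2.74 to 7.8) over the 106. Rsad2 was not past the fold in young with 3 or more partners and no Prox1 required (log2 ratio 0.97).

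**Figure D5:**
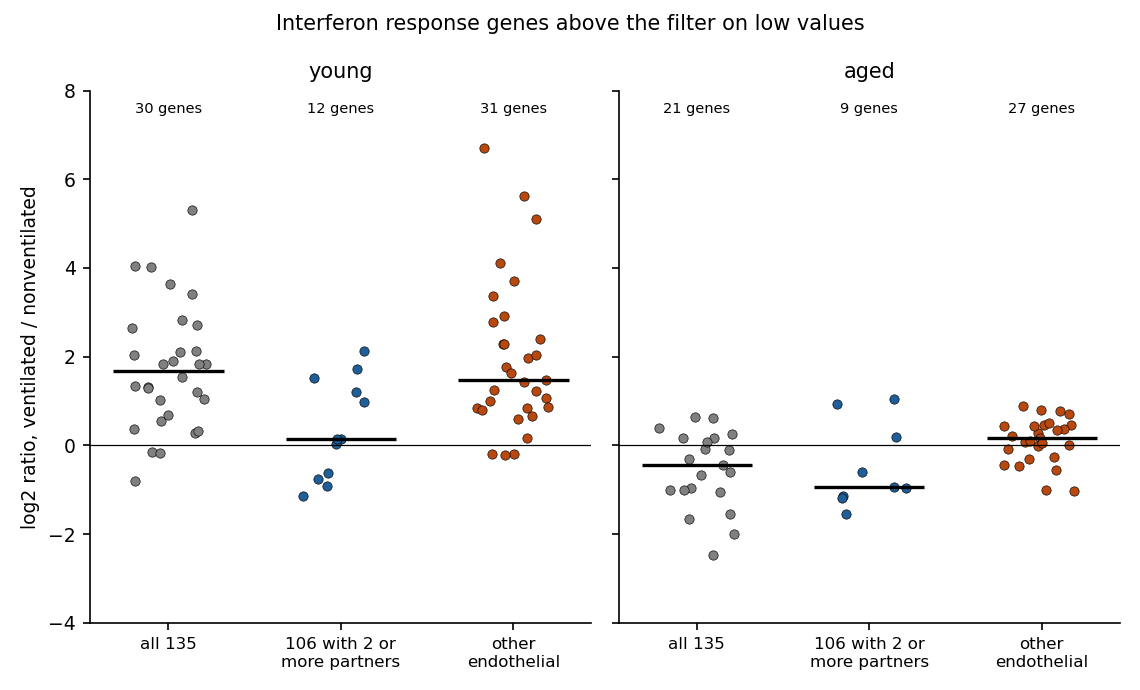
Log2 ratio of ventilated to nonventilated libraries (y axis) for each interferon response gene above the filter, in young (left) and aged (right), over all 135 barcodes, the 106 with 2 or more partners and other endothelial barcodes; the bar is the median and the number of genes is printed above. The medians in young are 1.68, 0.14 and 1.48, and in aged -0.45, -0.95 and 0.17.

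In aged, where 5.72% of all genes were higher and 5.13% lower over the 135 (6.05% and 6.08% over the 106), 0 of 21 interferon genes were higher with ventilation and 7 were lower over the 135 (median -0.45, and -1.73 without possible doublets), and 1 was higher and 3 lower of 9 over the 106 (median -0.95). Irf1, an interferon-responsive transcription factor, was among them at 304, 135, 689.9 and 234 CPM over the 106, with ratios of 0.443 (0.278 to 0.688) in young and 0.338 (0.251 to 0.452) in aged.

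The lists of lymphatic identity genes had members past the fold with ventilation in both directions. The shares of all genes to set beside the counts that follow are, over the 135, 9.88% higher and 10.6% lower in young and 5.72% and 5.13% in aged, and over the 106, 9.19%, 10.6%, 6.05% and 6.08%. Of 18 tested lymphatic markers that the rule did not use, 3 were higher (Nts, Fgl2 and Lcn2) and 4 lower (Sox18, Thy1, Fxyd6 and Cp) over the 135 in young (median log2 ratio -0.15), and 4 higher (Nts, Fgl2, Lcn2 and Ackr2) and 0 lower in aged (median 0.59). Over the 106 the counts were 4 and 4 (median -0.03) and 5 and 0 (median 0.35), and without the barcodes that may be doublets the aged median over the 135 was -0.07. Flt4 stood at 916, 816, 891 and 1047 CPM, Pdpn at 215, 431, 325 and 383 CPM and Nr2f2, the venous and lymphatic transcription factor COUP-TFII, at 741, 640.1, 672 and 1080.0 CPM, with none past the fold in either ventilation comparison. Of the VEGFC and VEGFR3 axis, 1 of 13 was higher and 3 lower in young over the 135 and 0 of 13 and 2 in aged, whereas over the 106 the counts were 0 and 0 of 12 and, for Sema3f in aged, 1 and 0 of 12. Of the lymphatic transcription factors, 0 were higher and 4 lower of 16 in young over the 135, and 0 and 2 of 14 over the 106 (Sox18 and Klf4); 0 were lower in aged over either sum. Of the cell junction genes, 0 of 18 were past the fold in aged over the 135 and 0 of 16 over the 106, where 1 of 18 was higher in young (Esam, an adhesion molecule of endothelial junctions).

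The remaining lists are given over the 135 first and then over the 106, beside the same shares of all genes. Over the 135, the glucocorticoid and metal response list had 4 higher and 2 lower of 14 in young and 4 and 0 of 14 in aged, which were Mt1, Mt2, Slc39a14 and Gadd45g on the higher side at both ages. Inflammatory mediators had 5 higher of 14 in young and 0 higher and 1 lower of 11 in aged, and over the 106 in young 2 of 8 were higher, namely Nfkbia, the inhibitor of NF-κB, and Ptx3, a secreted pattern recognition protein. Oxidative stress genes had 2 of 8 higher in young and 2 of 7 in aged, with Txn1 in both. Heat shock and chaperone genes had 1 of 12 and 2 of 12 higher, immediate early genes 1 higher and 1 lower of 21 in young and 0 and 1 in aged, MHC genes 1 of 11 higher in young and 2 of 11 lower in aged. Mechanosensing genes had 1 higher and 3 lower of 14 in young and 1 and 1 of 13 in aged, the angiopoietin, adrenomedullin and Notch list 0 and 4 of 16 and 0 and 2 of 14, and valve genes 1 and 2 of 8 and 0 and 1 of 8. Secreted and matrix factors had 6 and 5 of 24 and 7 and 4 of 21, lipid handling 2 and 1 of 10 at each age, p53 targets 2 and 2 of 8 and 2 and 0 of 8, and cell cycle genes 0 of 2 at each age.

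Over the 106, the glucocorticoid and metal response list had 5 higher and 1 lower of 13 in young and 4 and 0 of 13 in aged, and inflammatory mediators, beside the 2 of 8 in young, 0 and 1 of 9 in aged. Secreted and matrix factors had 4 and 1 of 16 and 5 and 2 of 14, with fewer members above the filter than over the 135. Oxidative stress genes had 1 of 8 and 2 of 7 higher, heat shock and chaperone genes 2 of 10 and 1 of 12, and immediate early genes 1 and 1 of 21 and 0 and 2 of 21. MHC genes had 0 of 6 and 0 of 7 past the fold. The angiopoietin, adrenomedullin and Notch list had 1 and 2 of 13 in young and 0 and 1 of 12 in aged, mechanosensing genes 2 and 2 of 13 and 0 and 1 of 13, and valve genes 2 and 0 of 6 and 1 and 0 of 5. Lipid handling had 1 and 1 of 5 and 2 and 0 of 6, p53 targets 3 and 2 of 8 and 1 and 0 of 7, and cell cycle genes 0 of 2 in young and 1 higher of 2 in aged. The median log2 ratio of MHC genes in young was -0.42 over the 106 and 0.29 over the 135, and that of secreted and matrix factors in aged was 0.15 and 0.84.

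The second comparison asks how the same barcodes of aged and young lungs differed without ventilation. Fewer genes stood apart here than between states, with 104 higher (2.66%) and 106 lower (2.71%) of 3914 over the 135, and 140 (4.46%) and 119 (3.79%) of 3137 over the 106. This comparison shares the YNV and ANV libraries with those above, so values are given side by side and no overlap is drawn. Among the list members was Fkbp5, a co-chaperone that glucocorticoids induce, with 45, 42, 104 and 146 UMIs over the 106 in 16 of 29, 18 of 27, 22 of 30 and 19 of 20 barcodes. It stood at 182, 195, 379.6 and 533 CPM, higher in both aged libraries than in both young ones, with aged to young ratios of 2.08 (1.45 to 3.02) without and 2.73 (1.93 to 3.95) with ventilation. In other endothelial barcodes Fkbp5 stood at 71.2, 170.1, 63.7 and 224 CPM, ordered by ventilation and not by age.

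Among the genes named for aged against young nonventilated lungs, Taf4b had 14, 29, 125 and 14 UMIs over the 135, Foxp4, a forkhead factor, 4, 12, 41 and 14, Adamts4 6, 41, 47 and 77, and Irf8, a transcription factor of the interferon regulatory family, 16, 50, 69 and 38. Tll1, a metalloprotease of the tolloid family that processes matrix and growth factor precursors, was lower with age at 365, 88.1, 98.6 and 255 CPM over the 106 at a ratio of 0.27 (0.169 to 0.42). Cadm1, an adhesion molecule, and Mcf2l, an exchange factor of small GTPases, were named lower over the 135 at 83, 33, 28 and 44 and 39, 19, 14 and 3 UMIs, but the 106 held 0, 0, 3 and 0 and 0, 0, 4 and 0. Il7, Prss23 and Igfbp5 were lower with age over the 106, with ratios of 0.383 (0.215 to 0.66), 0.426 (0.315 to 0.571) and 0.364 (0.307 to 0.43). Cdkn1a, the p21 cell cycle inhibitor that p53 induces, stood at 117, 325, 321 and 496 CPM over the 106 at a ratio of 2.73 (1.78 to 4.32). Beside 2.66% of all genes higher over the 135 and 4.46% over the 106, interferon genes had 6 higher of 20 over the 135 and 1 of 12 over the 106, glucocorticoid and metal response genes 3 of 13 and 3 of 12, and junction genes 0 of 18 and 0 of 16.

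With ventilation, 158 genes were higher in aged (4.18%) and 185 lower (4.89%) of 3784 over the 135, and 178 (5.9%) and 137 (4.54%) of 3018 over the 106. Of the 185 lower over the 135, 39 (21.1%) were also lower over the 106, 28.5% of its list. Stab2, a scavenger receptor for hyaluronan, had 33, 4, 78 and 49 UMIs over the 106 in 6 of 29, 2 of 27, 10 of 30 and 6 of 20 barcodes, and stood at 134 CPM (95% interval 92 to 188), 18.6 CPM (95% interval 5.06 to 47.5), 285 CPM (95% interval 225 to 355) and 179 CPM (95% interval 132 to 236). Both aged libraries were above their young counterparts, with ratios of 2.13 (1.4 to 3.3) without and 9.64 (3.53 to 36.8) with ventilation, from at most 10 barcodes in a library. Cacna2d3 stood at 543, 125, 515 and 503 CPM at a ratio of 4.02 (2.65 to 6.32). Chrm3, the M3 muscarinic receptor gene, had 79, 21, 61 and 112 UMIs and Wdr17 36, 5, 28 and 39. Prkag2, a regulatory subunit of the energy-sensing kinase AMPK, had 166, 21, 192 and 121. For all 3, YV was the lowest library. Without possible doublets Wdr17 kept a log2 ratio of 1.97 but did not meet the interval or the filter on low values.

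Among the genes lower in aged ventilated lungs were interferon genes. Over the 135, 22 of 30 were lower and 1 higher (median log2 ratio -1.58, all genes 4.89% lower and 4.18% higher). Over the 106, 6 of 12 were lower and 1 higher (median -0.80, all genes 4.54% and 5.9%). The YV sums are those of the ventilation comparison in young, so their higher interferon values enter both comparisons. A gene can pass the filter through YV alone, so these counts describe the list only. Ifi203, Gbp3, Gbp9 and Dtx3l were named lower over the 135 beside Rsad2, Ifit3 and Gbp2. Over the 106, Rsad2 and Gbp2 were past the fold, at log2 ratios of -3.57 and -2.98, while the other 5 were below the filter on low values, with 2, 12, 13 and 3 UMIs for Ifi203, 7, 8, 3 and 3 for Gbp3, 13, 14, 13 and 0 for Gbp9, 2, 9, 3 and 1 for Dtx3l and 1, 11, 8 and 0 for Ifit3. Without possible doublets Gbp2 kept a log2 ratio of -1.42 but did not meet the interval or the filter on low values. Neither Gbp3 (-0.64) nor Ifi203 (-0.63) was past the fold with 3 or more partners and no Prox1 required. Plcb1, a phospholipase C, was named at 155, 367, 512 and 33 UMIs over the 135, but the 106 held 10, 3, 8 and 7, so its difference lay in the 29. Jag1, a Notch ligand, stood at 48.6, 162, 14.6 and 29.2 CPM over the 106 at a ratio of 0.18 (0.0721 to 0.394), and Yap1, the transcriptional effector of Hippo signaling, at 101, 167, 149.7 and 51.1 CPM at a ratio of 0.306 (0.152 to 0.581).

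Markers of other cell types were present in the 106, and their part in the results was not tested. The capillary sum was given above, in which Hpgd had 4, 2, 10 and 0 UMIs; the venous markers Vwf, Slc6a2 and Ackr1 were at 0. The aerocyte list summed to 766, 807, 763 and 729.7 CPM, led in each library by Kdr, which lymphatic endothelium also uses, and Ednrb, the aerocyte marker, had 16, 52, 16 and 30 UMIs and 2 or more in 3, 13, 3 and 6 barcodes. The venous list summed to 619.8, 148, 256 and 234 CPM, led by Prss23 and in YV by Selp, and the arterial list to 681, 315, 569 and 419.6 CPM, led in each library by Fbln5. Alveolar epithelial markers summed to 72.9, 74.2, 113 and 54.7 CPM, led in each library by Sftpc, and airway markers to 199, 162, 208 and 73 CPM, mostly Scgb1a1, with Foxj1 at 0. Macrophage markers summed to 519, 413, 694 and 474 CPM, mostly Mrc1, with Marco at 0, and mesothelial markers to 616, 260, 376 and 310.1 CPM, all but 1 UMI of it Gpm6a, with Msln at 0. Fibroblast markers summed to 113, 130, 146 and 58.4 CPM, smooth muscle markers to 60.8, 139, 29.2 and 131 CPM, mostly Postn, lymphocyte markers to 0, 9.28, 11 and 40.1 CPM, neutrophil markers to 32.4, 60.3, 11 and 29.2 CPM, megakaryocyte and red cell markers to 28.4, 0, 7.3 and 18.2 CPM, and Schwann cell markers to 0, 13.9, 11 and 7.3 CPM. None of the 6 genes drawn per barcode is on any of these lists, which does not test the part of other cell types in them. Their ratios were of the same direction over the 135 and over the 106, which are part of the 135.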

How the data were processed

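The deposited files hold UMI counts per gene and barcode that the authors made with Cell Ranger 7.0.0 and the mm10 genome, per the submitters' processing notes, from 10x 3' libraries of 4 pooled lung cell suspensions; 32285 genes and 15428 barcodes (3630, 4497, 3901 and 3400) were read, and no count was normalized before deposit. Barcodes with 200 to 7500 genes and at most 10% mitochondrial UMIs were kept (2942, 3327, 3025 and 2552, with median depths of 9974.5, 8994, 10753 and 10971 UMIs). UMIs were summed over the selected barcodes of each library and scaled to 1000000 (CPM). With 1 library per group no test across samples exists, so ratios carry exact conditional binomial 95% intervals, levels exact Poisson intervals and shares Clopper-Pearson intervals, for counting error only. A gene was compared where the sums averaged 50 CPM or more and 1 of them held 20 or more UMIs. It counted as past the fold at 2-fold or more (1 UMI added to each sum) where the interval left out 1.

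Genes named in each comparison of libraries were the 8 largest differences in each direction past the fold, with UMIs in at least 5 barcodes of the higher library and no barcode holding more than 1 in 3 of its UMIs. Against other endothelium they were the 20 higher and 10 lower genes with the most extreme worst-library ratio at 100 CPM or more. Genes of the rule, mitochondrial, ribosomal and unnamed genes were left out. Members of 19 pathway and 14 marker lists (510 symbols) were named beside these; a few genes are not reported here. The cells, the lists and the split at 2 partner markers were chosen with earlier results of these data known. No doublet caller was run. An alternative left out 73 of the 135 (46 of the 106), those with 2 or more UMIs of Gpihbp1, Ednrb, Sftpc, Epcam or Pdgfra. It removed 27 of the 29 Lyve1-only barcodes, each by Gpihbp1, and 60 of the 62 left were among the 106. This alternative therefore cannot tell the removal of doublets from the removal of the 29. Gene positions come from the GRCm38 annotation and promoters from RefSeq (GRCm38.p6). On simulated counts the procedure recovered 100% of genes set 4-fold apart in each of the 4 comparisons, and 95.8% to 96.5% of intervals held the true ratio. These counts were Poisson draws, the model that the intervals assume, without spread between barcodes or mice. The genes set apart were drawn from those at 100 CPM or more. The simulation checks the code and cannot show how well the intervals cover real differences. Python 3.11.15, numpy 2.4.6, scipy 1.17.1, pandas 2.3.3 and matplotlib 3.10.9 were used.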

Additional observations from a re-analysis of the deposited data

Results flagged for a closer look

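Over the 135 barcodes, 19 genes were past the fold higher in young and lower in aged with ventilation, and 3 were the reverse; over the 106 there were 7 and 4. The 10 given here are those over the 135 that the naming rule or a list holds; with 1 library per group the difference was not tested. Log2 ratios of ventilated to nonventilated are given for young and then aged. Rsad2 stood at 4.02 and -1.67 (over the 106, 1.20 and -3.06), Ifi203 at 3.13 and -1.51 (2.31 and -1.81) and Rnf213 at 2.65 and -1.0003 (2.12 and -1.19), all interferon-inducible. Gbp2 stood at 2.04 and -1.04 (0.02 and -2.07), Gbp7 at 1.83 and -1.01 (0.04 and -0.95) and Iigp1, another interferon-induced GTPase, at 1.05 and -2.48 (-0.76 and -1.14), so for these 3 the higher value in young was not present over the 106. Yap1 stood at 1.30 and -1.26 (0.70 and -1.49), Rasgef1a, an exchange factor of small GTPases, at 1.06 and -1.71 (1.78 and -2.81) and Plcb1 at 1.06 and -3.78 (-1.26 and -0.17). Tll1 was the reverse case, at -1.98 in young and 1.43 in aged (-1.99 and 1.34 over the 106), with 90, 19, 27 and 70 UMIs over the 106 in 13 of 29, 11 of 27, 12 of 30 and 10 of 20 barcodes.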

How the results depend on the processing

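No paired analysis was possible because each group has 1 library and the only replicate number is 1; for the same reason no library could be left out. Alternatives are given with the count of genes higher and then lower over the 135. Without possible doublets the shares were 0.782%, 0.421%, 0.562% and 0.313%, and the counts were 149 and 216 in young with ventilation, 94 and 129 in aged, 74 and 110 with age in ventilated lungs, and 245 lower against other endothelium. Thinned to 3000 UMIs per barcode, which kept 36, 34, 36 and 24 barcodes, the counts were 160 and 160 in young, 93 and 89 in aged, 55 and 55 with age without ventilation and 56 and 69 with it. At a mean of 20 CPM and 10 UMIs there were 768 lower in young, 370 and 421 in aged, 250 and 243 with age without and 325 and 307 with ventilation, and 255 higher against other endothelium. With no filter there were 647 and 1064 in young, 479 and 562 in aged, 345 and 383 and then 437 and 393 with age, and 457 higher against other endothelium. At most 5% mitochondrial UMIs gave 171 higher with age without ventilation. The mean of each barcode's own CPM gave 112 lower with age in ventilated lungs and 175 lower against other endothelium, the study's cell filter (200 to 5000 genes and the 93rd percentile of UMIs) 201 lower, 2 or more partner markers 239 and 278, and 3 or more partners without Prox1 227 and 265. Over all alternatives together 90 counts stayed within 1.5 times and 40 did not. Of the list medians, 32 moved by more than 1.5 times, 12 of them without possible doublets. Log2 ratios that changed sign were those of Mcf2l with age without ventilation, at 2.17 with 2 or more partners and 2.21 with 3 or more and no Prox1, and of Plcb1 with age in ventilated lungs, at 0.65, 2.50 and, without possible doublets, 2.97; both genes lay almost wholly in the 29 barcodes with Lyve1 as the only partner. Of the named genes' values, 780 kept their direction and side of the fold and 28 kept the direction only. These totals count each gene once per alternative, and some alternatives change little. Without possible doublets 39 values kept both, 7 kept the direction only and 1 changed sign. That is fewer values than the 64 scored with 0.5 UMI added to each sum. Depth limits every result: a gene with 0 UMIs in a sum may still be expressed below 3 UMIs per sum, and library and mouse cannot be told apart.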
